A study of Rattus norvegicus with 19 samples.

Results

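HOX genes code for homeodomain transcription factors and lie in 4 clusters, A to D. A paralogue number states the place of a gene in its cluster, from the 3′ end (low numbers) to the 5′ end (high numbers). In the embryo the genes are switched on in this order, low numbers reaching up to the hindbrain and high numbers limited to the tail end, so that the set of HOX genes a spinal neuron expresses records its level along the body axis. In the ventral cord this code sorts motor neurons into the columns and pools that serve neck, limbs and trunk. The members described here are all rows of the expression table whose symbol is Hox, a cluster letter and a paralogue number, which gave 27 of 15597 genes. RefSeq (rat assembly GRCr8) lists 39 such symbols, all 27 matched by symbol and gene identifier, and the other 12 were not analysed here (Hoxa3, Hoxa4, Hoxa5, Hoxa9, Hoxa10, Hoxb1, Hoxb2, Hoxb6, Hoxc6, Hoxc13, Hoxd8 and Hoxd11).

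The 19 RNA-seq libraries came from spinal cultures started from the ventral cord of Sprague-Dawley rats at embryonic day 14 (wild type genotype) and grown in a medium with horse serum and chick leg extract. Untreated cultures (control, n = 5) were set beside cultures exposed for 90 min to long-chain polyphosphate at 100 μM (polyP, a linear polymer of phosphate, n = 5), to medium from mouse astrocytes with the wild-type human SOD1 transgene (wtSOD1-ACM, n = 4) or to medium from mouse astrocytes with the human SOD1 G93A transgene, a mutant form that causes familial amyotrophic lateral sclerosis (mutSOD1-ACM, n = 5). The labels speak of independent cultures but give their age in conflicting ways, so the age is not stated. Whole cultures were lysed, so that neurons, glia and any other cells of the dish contribute, and fewer cells of a type cannot be told apart from less RNA per cell.

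Levels are in FPKM, fragments per kilobase of a gene's transcript, scaled to the size of the library. The unit is per length and so allows levels of different genes to be set side by side. The depth of a library relative to the median library ran from 0.762 to 1.352, the FPKM summed over all genes ran from 446366 to 515541, and 11309 to 11723 genes reached 1 FPKM. The number of fragments behind a value is unknown, so counting intervals are left out, and the error of values near 0 is the largest in relative terms. A gene was tested when it reached 1 FPKM in at least 4 libraries, which kept 11887 genes and 21 of the 27 HOX genes. Hoxa13, Hoxb13, Hoxd1, Hoxd12 and Hoxd13 were among those left out by this filter and are given by their levels only. Apart from treatment, the libraries fall into a set of 11 (set 1, replicates 1 to 3 of control, polyP and mutSOD1-ACM and 1 and 2 of wtSOD1-ACM) and a set of 8 (set 2, replicates 4 and 5, or 3 and 4 of wtSOD1-ACM). These sets were drawn by correlation of the tested genes without the HOX genes and are not groups of the study, and the labels give no batch that would name them. Inside set 1 the same clustering drew a class A of 5 libraries (control replicate 1, polyP replicates 1 and 2, mutSOD1-ACM replicates 1 and 2) and a class B of 6 (control replicates 2 and 3, polyP replicate 3, wtSOD1-ACM replicates 1 and 2, mutSOD1-ACM replicate 3), so that the classes are unevenly spread over the treatments and wtSOD1-ACM has no class A library.

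The HOX code of the cultures was centred on cluster B and on paralogues 8 and 9. Hoxb8, a factor of the brachial and thoracic cord, stood at 270.9 ± 35.8 FPKM (SD, n = 19) and ranked 254th of all 15597 genes by mean. Hoxb9, its 5′ neighbour, which marks thoracic levels, followed at a mean of 193.6 FPKM, and Hoxc8, a determinant of brachial motor pools, at 75.57 FPKM. These leading genes kept their order in 19 of 19 libraries, and Hoxc8 also lay above Hoxb5 in all 19. Below them the order was loose. Hoxb5 (53.02 FPKM) exceeded Hoxb7 (47.85 FPKM) in only 11 of 19 libraries, and this order went with the sets. Hoxb5 was the higher gene in every library of set 2, with medians of 67.7 and 49.5 FPKM. In set 1 the medians were 43.4 FPKM (Hoxb5) and 46.3 FPKM (Hoxb7), and Hoxb7 was higher in most libraries. Hoxb3 (38.26 FPKM) exceeded Hoxc9 (36.25 FPKM) in 11 of 19, with both orders found in each set.

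The libraries of the leading gene of cluster B show how even this level was. Hoxb8 stood at 286.71, 184.61, 259.41, 282.39 and 274.15 FPKM in control replicates 1 to 5, and at 272.62, 263.33, 239.47, 366.80 and 302.85 FPKM in the polyP replicates. In wtSOD1-ACM it stood at 268.09, 235.28, 257.88 and 251.97 FPKM, and in mutSOD1-ACM at 269.75, 310.47, 257.84, 287.75 and 275.38 FPKM. The groups overlapped throughout, and control replicate 2 lay below the rest. Hoxb9 was the most 5′ gene of its cluster above 1 FPKM, at 214.46, 148.13, 187.81, 195.70 and 179.71 FPKM in control, with the same library lowest. The other groups covered 173.57 to 241.55 FPKM in polyP, 176.36 to 204.89 FPKM in wtSOD1-ACM and 182.36 to 226.90 FPKM in mutSOD1-ACM, again overlapping. Hoxb13, the next gene of the table in this cluster, had a mean of 0.28 FPKM.

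**Figure D1:**
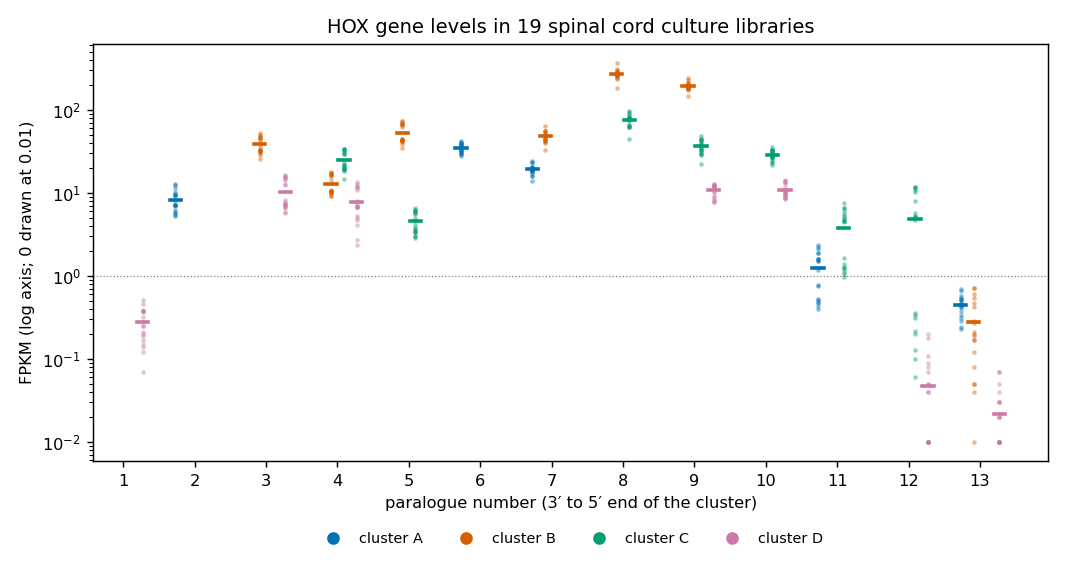
FPKM of the HOX genes reported here (log axis, 0 drawn at 0.01) against paralogue number, 1 point a library (n = 19), bars for means and colours for clusters, with a dotted line at 1 FPKM. The means peak at Hoxb8 (270.9 FPKM) and Hoxb9 (193.6 FPKM) and fall towards both ends, and the points of Hoxc12 split into a high and a low cloud.

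Summed over the 27 genes, HOX signal came to 899.9 ± 99.2 FPKM (SD, n = 19), or 0.188% of all FPKM. Cluster B held 68.5% of it, cluster C 19.9%, cluster A 7.21% and cluster D 4.43%. By paralogue number, 1 to 5 held 17.8%, 6 to 9 held 76.6% and 10 to 13 held 5.69%. These shares depend on which paralogues the table holds: Hoxa5, Hoxa9 and Hoxa10, for example, do not enter cluster A.

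Cluster A peaked at Hoxa6, a trunk-level gene, with 35.74, 32.83, 32.40, 41.40 and 39.98 FPKM in control. In the treated groups Hoxa6 covered 29.47 to 42.47 FPKM (polyP), 27.96 to 39.26 FPKM (wtSOD1-ACM) and 30.67 to 38.30 FPKM (mutSOD1-ACM), so that the 4 groups overlapped. Hoxa2, a patterning gene of the hindbrain whose expression runs on into the cord, had a mean of 8.24 FPKM, and Hoxa7, a thoracic gene, 19.3 FPKM. Cluster C peaked at Hoxc8 and was read further to the 5′ end than the others, with 7 of its 7 members at a mean of 1 FPKM or more, up to Hoxc12. In the other clusters 4 of 6 (A), 6 of 7 (B) and 4 of 7 (D) reached that level. These means are over both sets. In set 2 Hoxc12 (0.06 to 0.36 FPKM) and Hoxa11 (0.40 to 0.77 FPKM) lay under 1 FPKM in every library.

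Cluster D had the lowest levels. Its highest member, Hoxd10, a lumbar gene that with Hoxc10 specifies hindlimb motor columns, stood at 10.42, 9.15, 13.08, 8.69 and 8.68 FPKM in control and at 11.71, 9.82, 13.07, 10.02 and 10.87 FPKM in polyP. The values were 13.82, 14.38, 8.85 and 8.43 FPKM in wtSOD1-ACM and 9.29, 9.67, 13.97, 10.17 and 10.06 FPKM in mutSOD1-ACM. The highest value of each treatment fell in a class B library of set 1, and the treatments overlapped. Hoxd9 (10.7 FPKM) and Hoxd3 (10.3 FPKM) had nearly the same mean. Past Hoxd10, in the region that patterns digits and genitalia, Hoxd12 (0 to 0.20 FPKM) and Hoxd13 (0 to 0.07 FPKM) were near 0. Hoxa13 (0.45 FPKM) and Hoxd1 (0.28 FPKM) were also low.

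Genes that mark neural tissue in front of the HOX domain bear on the labelled tissue. Otx2, the forebrain and midbrain selector, was listed at 0 in 16 of 19 libraries and reached 0.03 FPKM at most, and Six3 had a mean of 0.053 FPKM. Of 24 such factors 20 were in the table and 8 were tested, among them Gbx2, Pax2 and Pax8, which also mark spinal interneurons or hindbrain (means of 22.8, 30.6 and 9.73 FPKM). Of the 7 motor neuron markers, Isl1, Isl2 and Mnx1, the defining factors of postmitotic motor neurons, had means of 0.184, 0.084 and 0.043 FPKM. The cholinergic genes Chat, which makes the transmitter, Slc18a3, which loads it into vesicles, and Slc5a7, which takes up choline, had means of 0.727, 0.993 and 0.449 FPKM. Prph, an intermediate filament gene of peripherally projecting neurons, was the highest at 3.20 FPKM (1.96 to 5.02 FPKM), and Lhx4, a factor of early motor neurons on the list of column factors, had a mean of 1.74 FPKM. Neuronal genes as a whole (Tubb3, Snap25, Map2 and 5 others) summed to 922.1 to 1660.0 FPKM.

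HOX genes at both ends of the code differed between the sets of libraries, in every treatment. Hoxc12, at the 5′ end of cluster C and a gene of the caudal cord, stood at 4.74, 7.89, 11.88, 0.34 and 0.22 FPKM in control replicates 1 to 5 and at 5.72, 5.29, 10.84, 0.31 and 0.06 FPKM in polyP. It stood at 11.53, 10.26, 0.13 and 0.20 FPKM in wtSOD1-ACM and at 5.11, 5.14, 11.85, 0.36 and 0.10 FPKM in mutSOD1-ACM. In each treatment the libraries of set 1 were high and those of set 2 low, with no overlap. Over all libraries the ranges were 4.74 to 11.88 FPKM against 0.06 to 0.36 FPKM, and the medians differed 37.6-fold. Within set 1, class B (7.89 to 11.88 FPKM) lay above class A (4.74 to 5.72 FPKM), also without overlap.

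Hoxc11, the next gene towards the 3′ end and a lumbosacral marker, was split in the same way, at 4.51 to 7.64 FPKM in set 1 and 0.97 to 1.65 FPKM in set 2, a 4.27-fold difference of medians. Hoxa11, its paralogue in cluster A, stood at 1.62, 1.19, 1.62, 0.47 and 0.43 FPKM in control and at 1.53, 1.89, 2.36, 0.52 and 0.77 FPKM in polyP. The values were 1.89, 2.12, 0.40 and 0.76 FPKM in wtSOD1-ACM and 1.5, 1.60, 2.23, 0.49 and 0.53 FPKM in mutSOD1-ACM. Set 1 was the higher set for Hoxa11 in all 4 treatments, with medians 3.21-fold apart. Hoxa11 and Hoxc12 reached the 1 FPKM filter through set 1 alone, so that they could only be tested because they were high there.

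At the other end of the clusters the direction was opposite. Hoxd4, expressed up to the hindbrain border, stood at 4.93, 6.96, 6.73, 12.71 and 10.82 FPKM in control, so that the set 2 libraries (replicates 4 and 5) were the high ones. It covered 2.38 to 6.96 FPKM in set 1 and 7.28 to 13.56 FPKM in set 2, with medians 2.20-fold apart. Hoxd3, its 3′ neighbour, covered 5.68 to 8.17 FPKM against 12.52 to 16.53 FPKM (2.11-fold), and Hoxb5, a cervical to brachial gene, 34.38 to 44.31 FPKM against 61.96 to 73.51 FPKM (1.56-fold). Hoxd3, Hoxb5 and Hoxc11 are given as examples chosen after their values were seen.

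**Figure D2:**
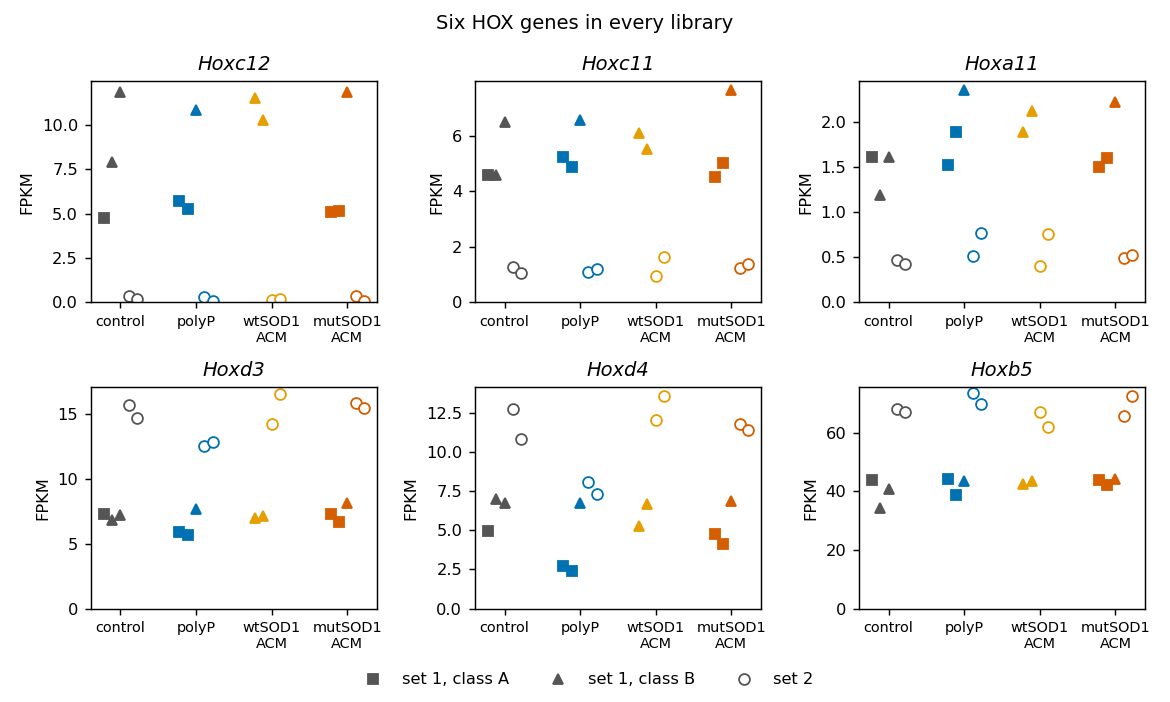
FPKM (linear axes from 0) of 6 HOX genes in every library, 1 point a library, by treatment (x axis); filled squares are class A and filled triangles class B of set 1, and open circles are set 2. Hoxc12, Hoxc11 and Hoxa11 are higher in set 1 and Hoxd3, Hoxd4 and Hoxb5 higher in set 2, in each of the 4 treatments.

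Counted by paralogue band, 8 of 8 tested genes of paralogues 2 to 5 were higher in set 2 with no overlap (Hoxa2, Hoxb3, Hoxb4, Hoxb5, Hoxc4, Hoxc5, Hoxd3 and Hoxd4), where 7.98% of all tested genes were. All 8 exceeded 1 FPKM in every library of both sets. Their log2 ratios of set 1 to set 2 medians ran from -1.14 to -0.52 with a median of -0.68. Of the 8 genes of paralogues 6 to 9, 0 were without overlap in either direction, and their log2 ratios ran from -0.46 (Hoxc9, lower in set 1 in all 4 treatments) to 0.11 (Hoxb9) with a median of -0.18. Past paralogue 9, Hoxa11, Hoxc11 and Hoxc12 were higher in set 1 with no overlap, and Hoxc10 and Hoxd10 overlapped. Of all tested genes 5.51% were higher in set 1 in this way, but nothing is read from that share here, because the filter let Hoxa11 and Hoxc12 in through set 1. The untested Hoxd1, Hoxa13, Hoxb13, Hoxd12 and Hoxd13 overlapped. The median of all tested genes differed by -0.03 on the log2(FPKM + 1) scale between the sets. Rescaled by median of ratios, by equal summed FPKM or by quantiles, the same 3 genes stayed higher in set 1, and 6, 7 and 8 genes were higher in set 2. Hoxb3 and Hoxd4 overlapped under median-of-ratios scaling and equal sums, and Hoxc9 joined under the latter.

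**Figure D3:**
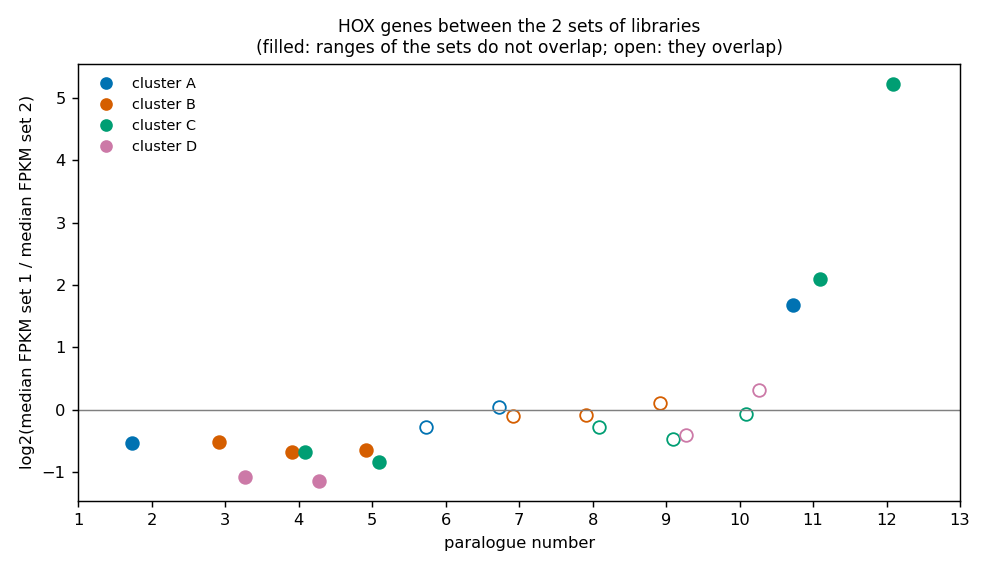
Log2 ratio of the median FPKM in set 1 (11 libraries) to that in set 2 (8 libraries) for the 21 tested HOX genes, against paralogue number, coloured by cluster; filled points have ranges that do not overlap. Paralogues 2 to 5 lie between -1.14 and -0.52, paralogues 6 to 9 between -0.46 and 0.11, and Hoxa11, Hoxc11 and Hoxc12 at 1.68, 2.09 and 5.23.

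The position of the whole code can be put in a single value, the mean paralogue number weighted by FPKM, which was 7.53 ± 0.185 (SD, n = 19). It ran from 7.528 to 7.766 in set 1 and from 7.283 to 7.46 in set 2, without overlap. Paralogues 1 to 5 held 13.32% to 18.08% of HOX signal in set 1 and 18.33% to 22.58% in set 2. Paralogues 10 to 13 held 4.99% to 5.77% in class A, 6.93% to 8.34% in class B and 4.04% to 4.75% in set 2. By treatment the weighted number was 7.499 ± 0.194 in control (n = 5), 7.58 ± 0.148 in polyP (n = 5), 7.51 ± 0.257 in wtSOD1-ACM (n = 4) and 7.52 ± 0.203 in mutSOD1-ACM (n = 5). Every group holds libraries of both sets, so these SDs include the difference between the sets. Inside set 2 the 2 polyP libraries (7.46 and 7.384) lay above the other 6 (7.283 to 7.313), and paralogues 1 to 5 held 18.33% and 20.08% of their HOX signal against 21.43% to 22.58%. Inside set 1 the polyP libraries (7.652 to 7.72) lay among the others (7.528 to 7.766). With so few libraries inside a set these values are a description, with no test.

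**Figure D4:**
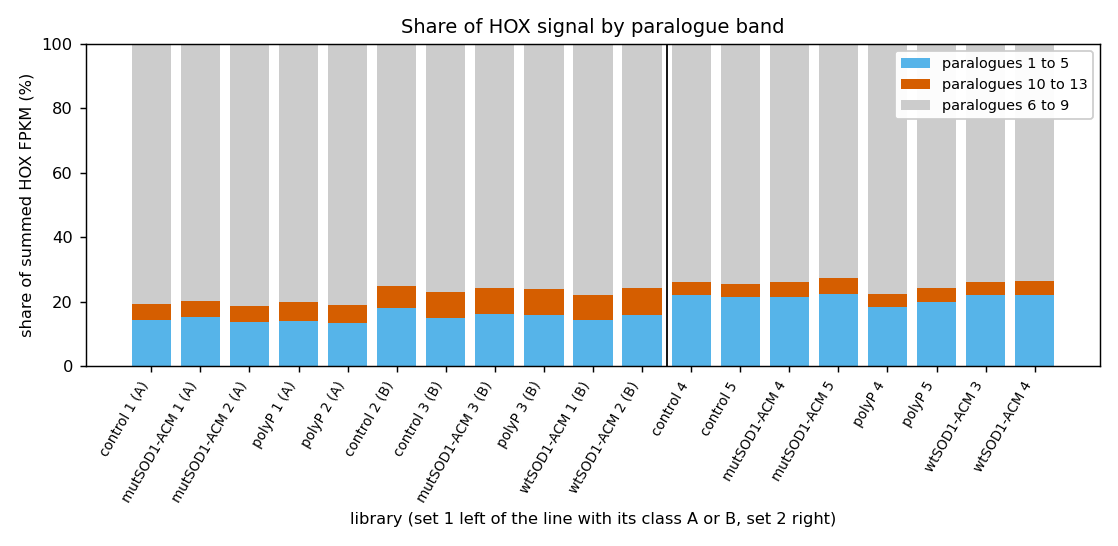
Share of summed HOX FPKM (stacked bars, %) held by paralogues 1 to 5 (blue), 10 to 13 (orange) and 6 to 9 (grey) in each library, with set 1 left and set 2 right of the line and the class in brackets. The blue share is 13.32% to 18.08% on the left and 18.33% to 22.58% on the right.

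Other genes moved with the sets, and their part in the HOX differences was not tested. The counts of genes given here are of values without overlap. Of all tested genes, 5.51% were higher in set 1 in this way, 7.98% in set 2 and, inside set 1, 13.6% in class B. Differences of the lists from these shares were not tested. Oligodendrocyte lineage markers summed to 494.1 to 889.3 FPKM in set 1 and 127.1 to 225.9 FPKM in set 2, with 7 of 10 higher in set 1 and 1 (Mog) higher in set 2. Mbp, the gene of myelin basic protein, covered 169.06 to 371.73 FPKM against 6.54 to 9.62 FPKM, and none of the 10 markers was listed at 0 in any library. Microglial markers summed to 67.07 to 478.4 FPKM against 38.89 to 51.19 FPKM (5 of 10 higher in set 1), and 9 of 10 were higher in class B than in class A. Astrocyte markers summed to 411.2 to 640.6 FPKM against 322.2 to 438.1 FPKM (3 of 8 higher in set 1), Schwann cell and sensory ganglion markers to 110.7 to 186.6 FPKM against 74.21 to 95.04 FPKM (1 of 5 tested), and motor neuron markers to 3.73 to 5.03 FPKM against 6.35 to 8.42 FPKM (1 of 2 tested, Prph, higher in set 2). Lists closer to axial identity moved as well. Head factors summed to 48.19 to 71.46 FPKM in set 1 against 85.14 to 94.45 FPKM in set 2, with Gbx2, Pax2 and Pax8 higher in set 2 (3 of 8 tested). These genes, which also mark spinal interneurons or hindbrain, had the highest means of the list and made up most of its sum. Otx1, Lhx2, Pax5, Barhl1 and Barhl2 overlapped. Inducers of HOX clusters summed to 351.2 to 398.5 FPKM against 456.7 to 503.9 FPKM (3 of 18 tested higher in set 2, 1 in set 1). Crabp1, the inducer of highest mean, covered 54.56 to 99.32 FPKM against 127.96 to 174.64 FPKM. Of 26 Polycomb genes 9 were higher in set 2 and 2 in set 1, their sums overlapping (629.8 to 734.0 against 699.7 to 785.8 FPKM). The 8 neuronal genes and the 11 tested genes of fibroblasts, meninges and limb or somite mesenchyme overlapped one by one between the sets. Inside set 1, 3 of these 11 mesenchymal genes were higher in class A, where 5.19% of all tested genes were, and 0 in class B. Relative depth was 0.936 to 1.352 in set 1 and 0.762 to 1.062 in set 2, and genes with rRNA symbols took 0.551% to 1.214% against 0.103% to 0.239% of the summed FPKM.

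Between the classes of set 1 only some HOX genes were apart. Hoxc12 and Hoxd4 were higher in class B, where 13.6% of all tested genes were, and Hoxb7, Hoxc8 and Hoxc9 were higher in class A, where 5.19% were. Hoxd4 covered 5.27 to 6.96 FPKM in class B and 2.38 to 4.93 FPKM in class A. Hoxc8 covered 44.58 to 66.47 FPKM in class B and 74.49 to 96.63 FPKM in class A. The untested Hoxb13 was also higher in class B (0.42 to 0.72 against 0.05 to 0.29 FPKM). Set against set 2, class A alone and class B alone each left Hoxa11, Hoxc11 and Hoxc12 higher and all 8 genes of paralogues 2 to 5 lower.

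Of 4 noncoding transcripts of the clusters other than microRNAs, 2 were split by set, where 13.5% of all tested genes were, in either direction. Nothing is read from that share, because the filter let Hoxa11-as in through set 1 alone. Hotairm1, a noncoding RNA of the 3′ end of cluster A, covered 4.35 to 9.22 FPKM in set 1 and 11.56 to 16.39 FPKM in set 2, like the 3′ genes. Hoxa11-as, which is transcribed away from Hoxa11 on the opposite strand, covered 1.04 to 1.98 FPKM in set 1 and 0.24 to 0.46 FPKM in set 2, like Hoxa11. Hoxb5os and Hoxaas3 overlapped, although Hoxb5 itself did not. The design text calls the sequencing strand-specific, but whether strand was used in counting is not given in the sources used here, so the reads of such overlapping or antisense pairs may not have been told apart. In RefSeq (GRCr8) the starts of Hoxa11 and Hoxa11-as lie 227 bases apart. The 226 bases between them, chr4:82676802-82677027 on the minus strand (5′ to 3′ towards Hoxa11), are shown because both genes were split by set. The 9 CpG dinucleotides are in capitals, and a part of this stretch in the split was not tested.
Hoxa11 and Hoxa11-as, between the starts: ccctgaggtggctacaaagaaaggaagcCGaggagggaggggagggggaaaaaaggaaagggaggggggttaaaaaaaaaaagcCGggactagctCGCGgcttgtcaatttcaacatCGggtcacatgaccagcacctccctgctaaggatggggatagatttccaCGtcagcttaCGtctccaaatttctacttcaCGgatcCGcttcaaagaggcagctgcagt

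RefSeq promoter windows were at hand for 13 of the 27 members. In the 250 bases before the start these held a median of 20.0 CpG (3 to 39), against 5.0 over all 33469 windows, and 12 of 13 lay above that median. Both strands were searched for TGATNNAT, the composite site of HOX proteins with PBX, and for TTTATG, a core bound by CDX and 5′ HOX factors. TGATNNAT was found in 7.96% of all windows and in 1 of 13 members, Hoxa2, and TTTATG in 11.4% of all windows and in 1 of 13 members, Hoxd4. The Hoxa2 stretch, chr4:82595759-82595846 (GRCr8, minus strand), is shown with the match in capitals, 114 bases before the start, since Hoxa2 was among the 3′ genes higher in set 2. A match of letters is not a measured site.
Hoxa2, upstream: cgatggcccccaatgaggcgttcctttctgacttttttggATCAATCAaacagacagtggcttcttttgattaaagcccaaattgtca

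The first treatment question is whether 90 min of polyP moved HOX genes against control. Hoxa7, Hoxb7 and Hoxc8, 3 genes of the trunk part of the code, rose with polyP in limma's test at an adjusted p under 0.05, and 0 fell. Hoxa7 stood at 19.60, 13.95, 18.64, 18.53 and 18.60 FPKM in control and at 20.25, 23.19, 19.80, 24.15 and 23.51 FPKM in polyP. All polyP libraries lay above all control libraries (17.9 ± 2.23 against 22.2 ± 2.00 FPKM, SD, n = 5 each), and the log2 difference on log2(FPKM + 1) was 0.30 (SE 0.08, limma adjusted p = 0.0088). Of all tested genes 31.8% were called in this comparison, 23.0% higher and 8.77% lower, so 3 of 21 HOX genes is a smaller share than that of the table.

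Hoxb7, the neighbour of Hoxb8, stood at 50.41, 32.81, 44.58, 44.72 and 49.34 FPKM in control and at 55.07, 55.63, 46.31, 64.31 and 55.58 FPKM in polyP, with polyP replicate 3 inside the control range. Its log2 difference was 0.32 (SE 0.10, limma adjusted p = 0.0183). Hoxc8 stood at 74.49, 44.58, 62.22, 75.28 and 76.67 FPKM in control and at 96.63, 89.64, 66.47, 92.87 and 87.03 FPKM in polyP, with the same polyP library inside the control range. Its log2 difference was 0.39 (SE 0.14, limma adjusted p = 0.0403). Hoxb7 and Hoxc8 are higher in class A than in class B, and set 1 of polyP holds 2 class A libraries and 1 of class B (replicate 3), whereas that of control holds 1 and 2. With the class as a term the differences were 0.27 (Hoxa7), 0.28 (Hoxb7) and 0.30 (Hoxc8), with limma adjusted p of 0.00122, 0.00427 and 0.000892. Control replicate 2 was the lowest library for all 3 genes. Without it Hoxa7 and Hoxb7 stayed called and Hoxc8 did not (0.25, adjusted p = 0.113). Leaving out control replicate 3 or polyP replicate 1, 2, 4 or 5 also ended the Hoxc8 call (adjusted p of 0.0676 to 0.0951), and leaving out polyP replicate 4 ended that of Hoxb7 (adjusted p = 0.0564), which left 1 of the 3 calls.

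Cell type markers moved in the same comparison. Their counts stand beside the 23.0% of all tested genes called higher and 8.77% called lower, and differences from these shares were not tested. Radial glia and progenitor markers summed to 2802 to 3299 FPKM in control and 3908 to 4316 FPKM in polyP, without overlap, and 4 of 7 rose. Fabp7, a fatty acid binding protein of radial glia, led them (983.5 ± 177 against 1899 ± 207 FPKM, SD, n = 5 each; log2 0.96, limma adjusted p = 0.000123), and Vim, a filament gene of the same cells, had the least change of the 4 (0.15, limma adjusted p = 0.0472). The call of Vim was lost in 14 of 19 fits that left out a library, in each set alone and under median-of-ratios, equal-sum and quantile scaling (-0.02 under the last), while that of Fabp7 held in all alternatives run. Endothelial markers summed to 12.38 to 16.01 FPKM in control and 8.42 to 11.47 FPKM in polyP (1 of 3 tested fell). The gene that fell was Flt1, which made up most of the sum, with means of 9.79 FPKM in control and 6.37 FPKM in polyP. Kdr (-0.32, limma adjusted p = 0.0593) and Tek (-0.04, limma adjusted p = 0.864) were not called. In the other marker lists 1 of 10 oligodendrocyte lineage genes rose and 1 fell, 2 of 11 tested mesenchymal genes rose and 2 fell, 1 of 8 astrocyte genes and 2 of 5 tested Schwann cell and ganglion genes fell, and 0 of 8 neuronal, 0 of 10 microglial and 0 of 2 tested motor neuron genes were called. The part of these cell types in the HOX differences was not tested.

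The other 18 tested HOX genes did not pass, with log2 differences from -0.60 to 0.28. The median of the 21 was 0.14, against 0.04 for all tested genes. Hoxb8 differed by 0.17 (95% interval -0.07 to 0.41) and Hoxc12 by -0.13 (95% interval -2.13 to 1.88), its libraries being split by set. Scaling between libraries mattered as well. With equal summed FPKM 0 HOX genes were called and with median-of-ratios scaling 1, the differences of Hoxa7, Hoxb7 and Hoxc8 staying positive, and the table's own calls went from 2736 higher and 1043 lower to 1404 and 1669, and to 1793 and 1545.

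Fits that take the sets into account called more HOX genes, at both ends of the polyP differences. With the set as a term in the limma fit 9 of 21 HOX genes were called, 6 higher and 3 lower, where 52.1% of all tested genes were. Hoxa2 (0.28), Hoxc4 (0.22) and Hoxc9 (0.24) joined the higher genes, and Hoxb3 (-0.18), Hoxd3 (-0.18) and Hoxd4 (-0.60) were lower. Hoxd4 stood at 2.73, 2.38, 6.74, 8.09 and 7.28 FPKM in polyP, below every control library of the same class or set except in class B, where 6.74 lay between 6.73 and 6.96 FPKM. Its limma adjusted p was 0.203 without the set term and 0.00884 with it. In set 2 alone 11 of 21 were called (9 higher, Hoxd3 and Hoxd4 lower; 46.1% of all genes), and in set 1 alone 0 (20.8% of all genes; 3 HOX genes at an unadjusted p under 0.05). Whether the effect of polyP differed between the sets was not tested.

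The second question, set in the series title, is what mutSOD1-ACM shares with polyP. With mutSOD1-ACM 0 of 21 HOX genes passed the limma test against control, where 0.0168% of all tested genes did (2 genes, both higher), and 0 had an unadjusted p under 0.05. Differences ran from -0.14 to 0.24, with SE of 0.08 to 0.95. Hoxa7 stood at 20.50, 20.14, 17.99, 20.19 and 19.48 FPKM, partly above the control range, with a difference of 0.14 (95% interval -0.03 to 0.31). Hoxb7 differed by 0.15 (-0.06 to 0.35) and Hoxc8 by 0.21 (-0.08 to 0.50). Each of these 3 intervals takes in the difference seen with polyP, and both comparisons use the same control libraries.

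With wtSOD1-ACM 0 of 21 HOX genes passed in limma against control, where 0.631% of all tested genes did (0.564% higher, 0.0673% lower), and 0 had an unadjusted p under 0.05. Differences ran from -0.12 to 0.18. Hoxa7 stood at 16.12, 15.97, 17.19 and 18.70 FPKM (difference -0.06, 95% interval -0.24 to 0.12). Hoxb7 stood at 42.65, 39.66, 43.03 and 40.94 FPKM (difference -0.08, 95% interval -0.30 to 0.14), inside the control range. For mutSOD1-ACM against wtSOD1-ACM 0 of 21 passed (0.471% of all tested genes, 0.00841% higher and 0.463% lower), and 2 had an unadjusted p under 0.05. These were Hoxa7 (0.20, limma adjusted p = 0.876) and Hoxb7, at 48.45, 52.45, 43.74, 49.91 and 49.61 FPKM in mutSOD1-ACM and so above all 4 wtSOD1-ACM libraries (0.23, limma adjusted p = 0.947). The first 2 of these are class A libraries, which wtSOD1-ACM lacks, and Hoxb7 is higher in class A. In class B the values were 43.74 FPKM against 42.65 and 39.66 FPKM, and in set 2 they were 49.91 and 49.61 FPKM against 43.03 and 40.94 FPKM.

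**Figure D5:**
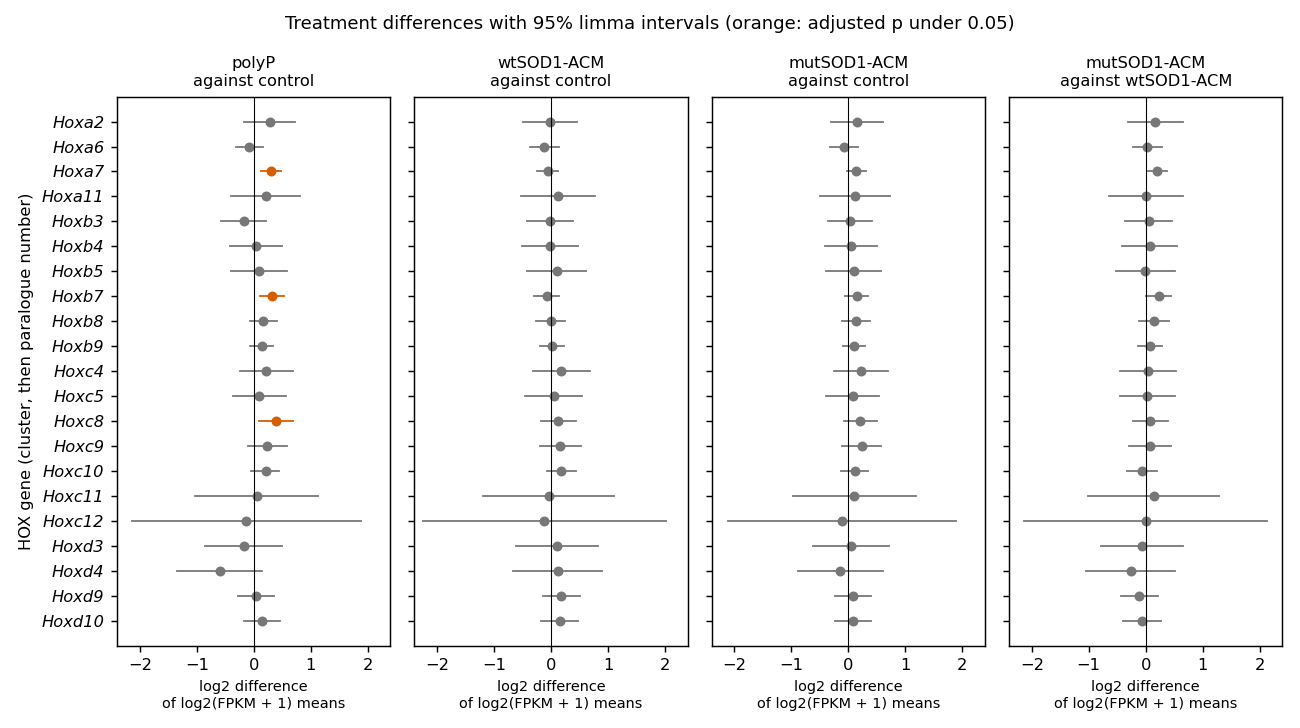
Differences of mean log2(FPKM + 1) (x axis) for the 21 tested HOX genes in the 4 comparisons, with 95% limma intervals; orange marks an adjusted p under 0.05. Only Hoxa7, Hoxb7 and Hoxc8 with polyP are orange (0.30, 0.32 and 0.39), and the intervals of Hoxc12 reach about -2.13 to 2.13.

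The microRNAs of the clusters were present only as rows of their genes, which in libraries of poly(A) RNA hold fragments of longer precursors and not the mature microRNAs. Their mature forms fall into 2 families, the miR-10 family beside the paralogue 4 genes of clusters B and D and the miR-196 family beside the paralogue 9 genes of clusters A, B and C. miR-196 is known for pairing with transcripts of Hoxb8, Hoxc8 and Hoxa7. The sequences, with bases 2 to 8 (the seed) in capitals, show that the miR-196 forms share their seed and that miR-10b-5p as listed begins 2 bases later than miR-10a-5p, so that their seeds are shifted.
rno-miR-10a-5p: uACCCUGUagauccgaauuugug
rno-miR-10b-5p: cCCUGUAGaaccgaauuugugu
rno-miR-196a-5p: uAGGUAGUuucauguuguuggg
rno-miR-196b-5p: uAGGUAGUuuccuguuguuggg
rno-miR-196c-5p: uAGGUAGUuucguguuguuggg

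Mir10a was listed at 0.90, 2.26, 1.82, 0.74 and 0.61 FPKM in control and at 0 in 5 of 5 polyP libraries (limma adjusted p = 0.0184). Values this low rest on few fragments of a short gene. Without control replicate 2 the adjusted p was 0.0554, and in set 2 alone 0.476. In wtSOD1-ACM Mir10a was listed at 1.66, 0.91, 0 and 0.71 FPKM and in mutSOD1-ACM at 0.52, 0, 0, 0 and 3.19 FPKM. Mir10b, Mir196a, Mir196b, Mir196c and Mir615 were listed at 0 in 6, 9, 8, 5 and 15 of 19 libraries, and none that was tested passed in any comparison.

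The partners of HOX proteins come first among the lists of the pathway, whose polyP counts stand beside the 23.0% of all tested genes called higher and 8.77% called lower. TALE homeodomain factors (PBX, MEIS and PKNOX proteins, which bind DNA with HOX proteins, and the related TGIF repressors) were all 12 tested. With polyP, 2 of 12 rose and 1 fell, a share called near the 31.8% of the table. Tgif2, a TGIF repressor, went from 16.8 ± 0.946 to 22.7 ± 1.15 FPKM (log2 0.41, limma adjusted p = 0.000297). Pbxip1, which binds PBX proteins, went from 38.3 ± 6.52 to 28.2 ± 1.61 FPKM (-0.41, limma adjusted p = 0.00946; n = 5 each). With wtSOD1-ACM Tgif1 stood at 32.1 FPKM against 24.1 FPKM in control (0.39, limma adjusted p = 0.0194) and so rose. This call was lost without control replicate 1 or 3 or wtSOD1-ACM replicate 3 or 4 (adjusted p of 0.0537 to 0.104). By set, Pbx4, Meis1 and Meis3 (3 of 12) were higher in set 2 with no overlap, where 7.98% of all tested genes were. The list summed to 302.9 to 341.8 FPKM in set 1 and 382.8 to 408.0 FPKM in set 2.

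Of the genes known to induce or set HOX clusters (retinoid, FGF, CDX and hindbrain regulators) 18 of 29 were tested. The trunk inducers Cdx2 and Cdx4 had means of 0.0047 and 0.014 FPKM. With polyP 0 of 18 rose and 2 fell. Egr2, the Krox20 factor of the hindbrain, which Schwann cells and activated neurons also express, went from 22.04 ± 3.79 to 8.17 ± 1.68 FPKM (-1.33, limma adjusted p = 1.93e-05). Fgfr1, a receptor for FGF, went from 114.9 ± 11.3 to 82.2 ± 3.15 FPKM (-0.47, limma adjusted p = 0.000249). Crabp1, which binds retinoic acid in the cytoplasm, covered 54.56 to 99.32 FPKM in set 1 and 127.96 to 174.64 FPKM in set 2; it is named after its values were seen.

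Polycomb proteins keep silent HOX genes closed, and trithorax proteins keep active ones open. Of 26 tested Polycomb genes 5 rose with polyP and 0 fell, a share of risers no larger than the 23.0% of the table. They were led by Rbbp4 (log2 0.40, limma adjusted p = 0.000149), Rbbp7 (0.34, adjusted p = 0.00025) and Rnf2 (0.32, adjusted p = 0.000965), with Pcgf5 at 0.41 (adjusted p = 0.00743). Rbbp4 and Rbbp7 are histone-binding subunits shared with other complexes, and Rnf2 and Pcgf5 belong to the H2A ubiquitin ligase. Of 10 trithorax and demethylase genes 2 rose, again near 23.0%: Dpy30 (0.41, limma adjusted p = 0.002) and Ctcf, which bounds HOX domains (0.28, adjusted p = 0.000355). Kdm6b, a demethylase that removes the Polycomb mark, fell (-0.59, limma adjusted p = 0.000338). Of the 14 tested genes beside or inside the clusters 5 rose with polyP, among them Hibadh (0.43), Cbx5 (0.40) and Smug1 (0.28; limma adjusted p of 0.000476, 0.0015 and 0.00748), and 1, Mir10a, was lower. Here 23.0% of all tested genes rose and 8.77% fell, and the difference from that share was not tested. Medians of these lists with polyP were 0.13 (TALE), -0.04 (inducers), 0.04 (Polycomb), 0.02 (trithorax), 0.12 (neighbours), 0.02 (motor column factors) and -0.01 (head factors), against 0.04 for all tested genes.

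Motor column factors act with HOX proteins in the choice of column. Of 10 tested, 3 rose with polyP and 0 fell, near the 23.0% of all tested genes that rose. They were Etv1 (0.36, limma adjusted p = 0.0135), a factor of motor and sensory pools, and the nuclear receptors Nr2f2 (0.25, adjusted p = 0.0247) and Nr2f1 (0.19, adjusted p = 0.0437). The call of Nr2f2 was lost without control replicate 2 or polyP replicate 4 or 5 (adjusted p of 0.0612 to 0.0746), and that of Nr2f1 in 11 of 19 fits that left out a library. Foxp1, the HOX accessory factor of limb motor columns, had a mean of 13.8 FPKM and did not pass. Head factors gave 0 calls among 8 tested with polyP. In the wtSOD1-ACM comparison Tgif1 was the only call in these lists, and in both mutSOD1-ACM comparisons there were 0.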

How the data were processed

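The authors deposited a single table of FPKM per gene and library with 2 decimals; the alignment used HISAT and rat build rn6, per the submitters' processing notes. The tool and annotation behind the FPKM and any scaling between libraries were not given in the sources used here. All 19 columns were matched to samples by name. Relative depth was recovered from 55 rare genes, 97.0% of whose values were whole fragments within 0.1.

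The test was that of limma 3.58.1 (trend, robust; R 4.3.3) on log2(FPKM + 1) with all 4 groups in 1 fit and the group as the only term, two-sided, with Benjamini-Hochberg adjustment over 11887 genes, a gene being called at an adjusted p under 0.05. The procedure was also run on simulated data, but the setting and outcome of that run are not given here. It therefore cannot vouch for a fit to groups that mix the sets of libraries, and nothing is read from it. P-values measure the spread between cultures as the labels describe them. Library by library the text gives, per cluster, the gene of highest mean and the most 5′ gene at 1 FPKM or more, and every called member; of each list it names at most 4 called genes with the smallest p. Members, lists and this rule were chosen with earlier results of these data known. Sets and classes of libraries came from average-linkage clustering without the HOX genes and are described, not tested. Sequences are from RefSeq tables of GRCr8; gene coordinates are not given, since the builds differ. Results for a few genes are left out of the text, and the plot of levels leaves out 1 HOX gene.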

Additional observations from a re-analysis of the deposited data

Results flagged for a closer look

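The 92 groups of 4 or 5 libraries were a tested HOX gene, the summed HOX FPKM or the weighted paralogue number in a treatment. In 3 of 92 a single library lay far from the others by Dixon's gap over range, where chance gives about 1 in 20, that is 5%. That rate is for a group without subgroups, whereas every group here mixes both sets. Nothing is therefore read from the share flagged. Hoxa7 in control replicate 2 was 13.95 FPKM, against 18.53 FPKM in the nearest control library. Hoxb8 in the same library was 184.61 FPKM, against 259.41 FPKM in the nearest. Hoxd10 in mutSOD1-ACM replicate 3 was 13.97 FPKM, against 10.17 FPKM in the nearest; this is the only class B library of its group.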

How the results depend on the processing

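The count of 3 HOX genes called with polyP became 1 with median-of-ratios scaling, 0 with equal summed FPKM, 1 with only the 2 groups compared, 0 in set 1 alone, 11 in set 2 alone, 9 with the set as a term and 12 with the class as a term (added after seeing the data). It lay between 1 and 3 when each library was left out, with 1 only without polyP replicate 4. The counts of 0 in the other 3 comparisons stayed 0 under every alternative run. Over all genes the 3779 polyP calls became 5480 in set 2, 2470 in set 1, 6194 with the set term and 6631 with the class term, and over all alternatives the 75 calls of wtSOD1-ACM, 2 of mutSOD1-ACM and 56 between them covered 33 to 239, 0 to 5 and 40 to 119. The labels do not state that replicate numbers pair the libraries. Same-numbered libraries correlated at 0.07 to 0.69 for polyP and control and at 0.08 to 0.79 for mutSOD1-ACM and control. Those of wtSOD1-ACM correlated at -0.69 to 0.76 with control and at -0.72 to 0.73 with mutSOD1-ACM. The lowest of both was at replicate 3, which is in set 2 for wtSOD1-ACM and in set 1 for the other groups. Since replicate numbers follow the sets, these values cannot decide whether libraries are paired. A replicate block gave 4 HOX calls with polyP (3 higher and Hoxd4 lower, -0.60, limma adjusted p = 0.00163), 0 in the other comparisons and 5730 calls over all genes. The weighted paralogue number of 7.53 became 6.87 with log2 weights, 7.33 without Hoxb8 and 6.79 with equal weights, and 7.515 to 7.541 when each library was left out. Counting error at low FPKM limits Hoxa11, the genes under 1 FPKM and the microRNA rows. No alternative run turned the direction of Hoxa7, Hoxb7, Hoxc8, Hoxd4 or a called list gene named in the treatment comparisons, except Vim with polyP (-0.02 under quantile normalization). Rnf2 (adjusted p = 0.0574) and Pbxip1 (0.0521) lost their calls in set 1 alone, Smug1 in set 2 alone (0.148) and with equal sums (0.093), and Etv1 in set 1 alone (0.0516), with median-of-ratios scaling (0.0514) and with equal sums (0.0713).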
